A study of Mus musculus with 11 samples.

Results

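The sodium channel genes Scn1a, Scn2a, Scn3a, Scn4a, Scn7a, Scn8a, Scn9a, Scn10a and Scn11a were examined for genomic occupancy by the transcription factors (TFs) Runx3 and Brn3a in TrkC neurons of the mouse dorsal root ganglia (DRG). These 9 genes, of 21911 protein-coding genes in the GRCm38 (mm10) annotation, were chosen as members of the sodium channel alpha subunit family and not by their peaks. The choice was made with earlier results of these data known. Occupancy was mapped by CUT&RUN, in which nuclease is brought by an antibody to the chromatin that carries its target, and the DNA cut free is sequenced. All libraries came from DRG of E12.5 embryos of Runx3-BAC-GFP-CB6 transgenic mice (BacE-GFP), where E12.5 is the embryonic day, from cells sorted for green fluorescent protein driven by a bacterial artificial chromosome with the Runx3 locus, so that the sort selected cells in which this transgene was active. The study had 3 anti-Runx3, 4 anti-Brn3a and 3 anti-H3K27Ac libraries and 1 library with normal rabbit serum. Results rest on the consensus peak lists of Runx3, with 25885 peaks, and of Brn3a, with 32887 peaks. A list peak had been found in at least 2 libraries of its antibody and carries no height or value per library, so that no comparison over replicates could be made and no test was run.

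Voltage-gated sodium channels open when the membrane depolarises and carry the inward current of the action potential. Each gene of the family encodes the large pore-forming subunit of 1 channel, and a neuron's threshold and firing pattern depend on which of them it uses. In adult DRG, Scn1a (Nav1.1) and Scn8a (Nav1.6) are known in large-diameter neurons, which include proprioceptors, the neurons that report muscle stretch. Scn9a (Nav1.7) is used widely in sensory neurons, while Scn10a (Nav1.8) and Scn11a (Nav1.9) are known as channels of nociceptors. Scn2a (Nav1.2) is used mainly in the central nervous system, Scn3a (Nav1.3) mainly in embryos, and Scn4a (Nav1.4) in skeletal muscle. Scn7a encodes Nax, a relative that is not gated by voltage in the usual way. TrkC neurons need Runx3, a TF of the RUNX family, to develop. Brn3a is the POU-domain TF encoded by Pou4f1 and is shared by most classes of sensory neuron. A peak tells that a TF was found at a place and not that the gene was expressed.

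A peak was assigned to a gene when its centre lay in the regulatory domain of that gene, which reached from 5 kb upstream to 1 kb downstream of the transcription start site (TSS) and was extended to the same windows of the neighbouring genes, by at most 1 Mb. The 9 domains held 22 Runx3-list and 41 Brn3a-list peaks, each counted once. Regions were called co-bound when peaks of the lists shared at least 1 bp, and 14 regions were co-bound, so that the peaks made up 49 separate regions. Of these, 8 held Runx3 alone and 27 Brn3a alone. The RBS column of the Runx3 list counts RUNX binding sites, which are words of the form TGNGGN on either strand with C or T at each N, and the V$BRNF column of the Brn3a list marks peaks with a motif of the Brn family. The co-bound regions with both a RUNX site and V$BRNF are the places where occupancy and sequence of both TFs came together, and there were 8 of them, at Scn2a, Scn7a, Scn8a, Scn9a and Scn10a. These names follow the domains, and some of the regions lay nearer to the start of a gene outside the family. By nearest TSS, Scn8a and Scn10a kept no co-bound region of any kind, Scn2a kept 1 and Scn7a 2.

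The sequence that both peaks shared is given for these 8 regions on the forward strand of GRCm38, 5′ to 3′, and for the region upstream of Scn7a at 15.0 kb the first 300 bases of it. Capitals mark RUNX sites and the Brn words TTAATGA and ATTAAT, on either strand. The position of V$BRNF within a peak is not known from the list.
Scn2a, 212 kb downstream of its TSS, chr2:65833049-65833305: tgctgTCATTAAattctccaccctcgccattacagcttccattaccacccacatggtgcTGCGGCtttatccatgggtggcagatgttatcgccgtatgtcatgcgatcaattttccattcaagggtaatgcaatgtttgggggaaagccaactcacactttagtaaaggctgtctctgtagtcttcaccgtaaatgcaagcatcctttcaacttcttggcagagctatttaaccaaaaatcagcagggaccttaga
Scn9a intron 1, 23.6 kb downstream, chr2:66611238-66611490: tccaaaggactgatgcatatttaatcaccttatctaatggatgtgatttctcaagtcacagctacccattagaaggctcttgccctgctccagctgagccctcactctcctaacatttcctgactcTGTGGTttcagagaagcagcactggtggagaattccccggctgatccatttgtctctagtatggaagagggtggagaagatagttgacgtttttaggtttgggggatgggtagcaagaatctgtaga
Scn9a, 27.2 kb upstream, chr2:66662013-66662299: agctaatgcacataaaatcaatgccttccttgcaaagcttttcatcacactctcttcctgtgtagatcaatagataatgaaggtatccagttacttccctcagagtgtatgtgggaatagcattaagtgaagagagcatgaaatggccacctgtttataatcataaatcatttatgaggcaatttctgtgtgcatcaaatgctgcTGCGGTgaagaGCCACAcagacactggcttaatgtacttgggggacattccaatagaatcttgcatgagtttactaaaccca
Scn7a intron 8, chr2:66727048-66727261: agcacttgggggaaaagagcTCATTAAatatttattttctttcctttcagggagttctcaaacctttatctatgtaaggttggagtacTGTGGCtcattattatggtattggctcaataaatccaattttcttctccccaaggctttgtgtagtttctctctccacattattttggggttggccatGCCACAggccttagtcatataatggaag
Scn7a, 15.0 kb upstream, chr2:66799750-66800049: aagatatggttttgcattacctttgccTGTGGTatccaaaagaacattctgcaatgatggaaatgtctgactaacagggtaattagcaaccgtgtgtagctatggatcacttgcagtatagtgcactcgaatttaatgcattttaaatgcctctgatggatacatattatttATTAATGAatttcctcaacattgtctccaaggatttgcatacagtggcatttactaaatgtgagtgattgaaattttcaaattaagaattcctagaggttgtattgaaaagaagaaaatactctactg
Scn7a, 473 kb upstream, chr2:67257537-67257711: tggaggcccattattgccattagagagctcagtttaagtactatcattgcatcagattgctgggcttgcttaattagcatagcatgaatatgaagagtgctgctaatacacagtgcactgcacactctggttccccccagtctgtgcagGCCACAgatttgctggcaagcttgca
Scn10a intron 18, chr9:119631752-119631976: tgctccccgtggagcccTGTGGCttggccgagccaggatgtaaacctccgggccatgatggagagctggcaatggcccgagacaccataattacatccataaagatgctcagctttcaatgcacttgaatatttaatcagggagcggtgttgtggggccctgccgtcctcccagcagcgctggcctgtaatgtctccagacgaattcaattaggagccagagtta
Scn8a, 63.6 kb upstream, within Slc4a8, chr15:100806256-100806354: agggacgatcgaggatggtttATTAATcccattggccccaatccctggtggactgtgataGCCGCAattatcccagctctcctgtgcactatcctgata
TTAATGA was found in 3 of these 8 sequences and ATTAAT in 2, while 4 held neither word. These regions were chosen for V$BRNF, a motif of the same family, and no share is drawn from these counts. In the region 15.0 kb upstream of Scn7a both words overlapped in 1 stretch. The region 27.2 kb upstream of Scn9a had 2 RUNX sites on opposite strands, close to each other.

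Promoter peaks with a motif at Scn9a, Scn11a and Scn3a are given in the same way, since they place a TF at the start of a gene, and that of Scn10a is described by position only. The Scn9a line shows 30 bases around the only RUNX site of the Runx3-list promoter peak. The Scn3a line shows the part of the Brn3a-list peak that lies before the TSS.
Scn9a promoter, Runx3 list, chr2:66634857-66634886: tgatgctagggaTGCGGCagcctctatact
Scn11a promoter, Runx3 list, chr9:119823903-119824042: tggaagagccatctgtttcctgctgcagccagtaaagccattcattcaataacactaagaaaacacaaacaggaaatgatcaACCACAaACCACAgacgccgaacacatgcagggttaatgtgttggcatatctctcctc
Scn3a promoter, Brn3a list, chr2:65567628-65567736: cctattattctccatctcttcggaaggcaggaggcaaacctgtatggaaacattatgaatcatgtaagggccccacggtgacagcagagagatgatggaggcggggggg
The Scn11a peak of 140 bp held 2 RUNX sites in the same direction, separated by 1 base. The Scn3a stretch held none of the words searched, although its peak was marked with V$BRNF.

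Runx3 was found in the domains of 8 of the 9 genes, Brn3a in all 9, and co-bound regions in 7. Over all protein-coding genes these shares were 63.1% for Runx3, 57.7% for Brn3a and 31.9% for co-bound Runx3-list peaks. When each peak was given only to the gene with the nearest TSS, Runx3-list peaks were left at 6 genes and co-bound regions at 4, and Scn3a and Scn8a joined Scn4a with no Runx3-list peak. A longer domain has more room for peaks, and the median domain was 268 kb for the sodium channel genes and 90.0 kb for all genes. Scn4a had the shortest domain, 40.7 kb, and the next shortest, of Scn11a, measured 166 kb. Among the 5450 genes with domains between the shortest and the longest of the other 8, 80.9% had a Runx3-list peak and 83.2% a Brn3a-list peak. A co-bound Runx3-list peak was found in the domains of 52.8% of them. The genes without a co-bound region were Scn4a and Scn11a.

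The median sodium channel gene had 3 Runx3-list peaks, 6 Brn3a-list peaks and 1 co-bound region. The medians were 1, 1 and 0 over all genes, and 2, 3 and 1 over the 5450 genes with domains of that length. Without Scn4a, the medians of the 8 remaining genes were 3.5, 6 and 1.5. Measured per length over the merged domains of 2.25 Mb, the density of Runx3-list peaks was 9.78 per Mb (95% Poisson interval 6.13 to 14.8), beside 9.89 per Mb in the domains of all genes. For Brn3a it was 18.2 per Mb (13.1 to 24.7), beside 12.47 per Mb. Thus the Runx3 density was close to that of all genes, and the interval of the Brn3a density lay above it. Intervals cover the counting of peaks only, and neighbouring peaks need not be independent.

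**Figure D1:**
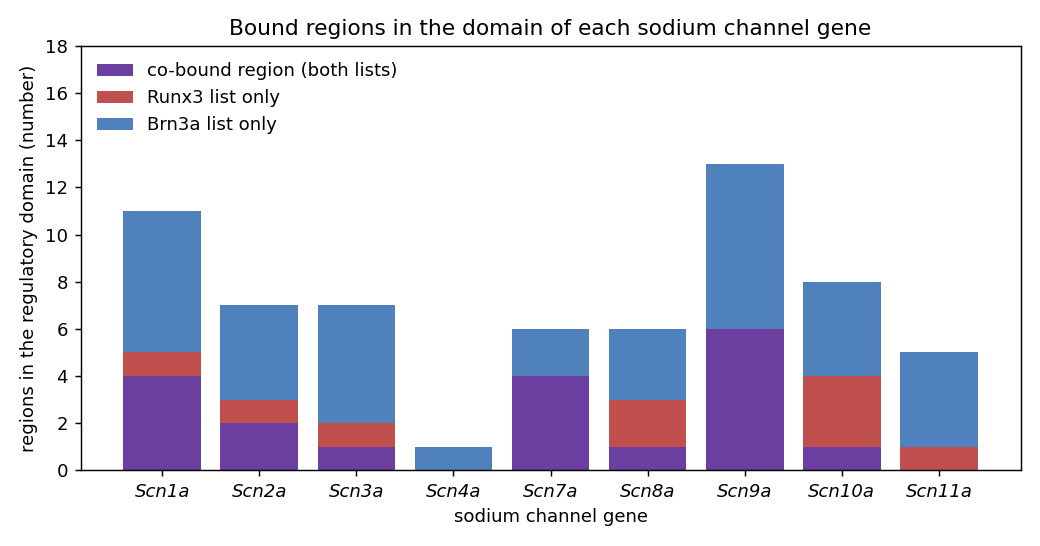
Number of regions in the regulatory domain of each sodium channel gene (bars, stacked), split into co-bound regions, Runx3-list peaks alone and Brn3a-list peaks alone. Scn9a has the tallest bar with 13 regions, 6 of them co-bound, and Scn4a the lowest with 1. Regions in the domains of neighbouring genes count for each.

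**Figure D2:**
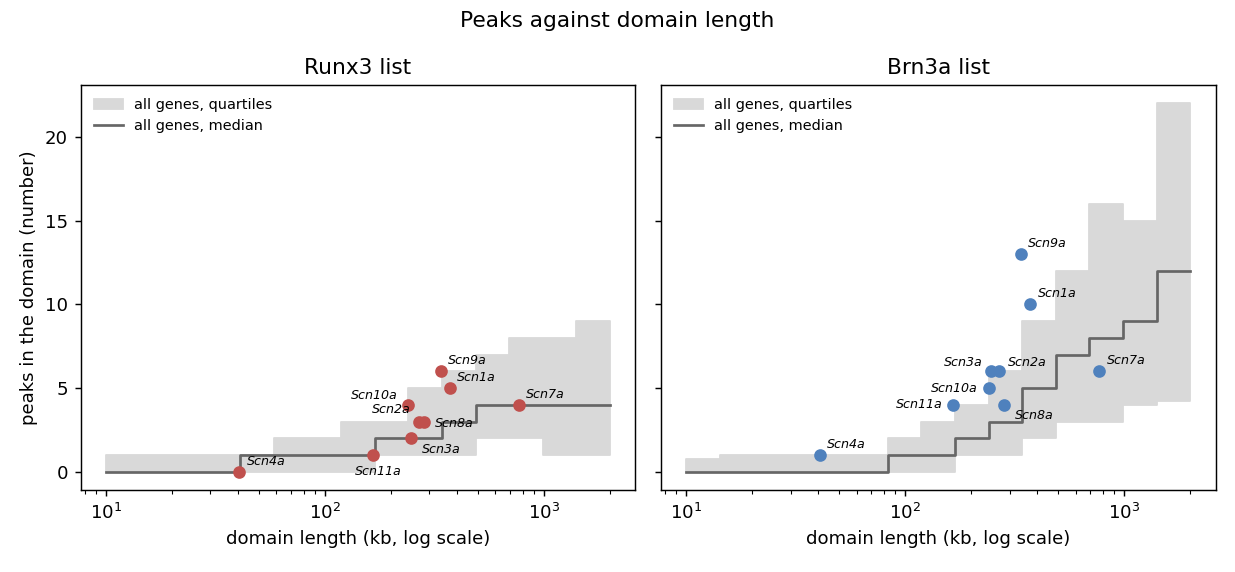
Peaks per domain (vertical axis, number) against domain length (horizontal axis, kb, log scale) for the Runx3 list (left) and the Brn3a list (right). Points are sodium channel genes, and the line and band are the median and quartiles of all protein-coding genes in bins of domain length. For Brn3a, Scn9a with 13, Scn1a with 10 and Scn11a with 4 peaks lie above the band and Scn7a with 6 lies below the median, and for Runx3, Scn9a with 6 lies above the band.

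Scn9a, whose channel amplifies small depolarisations in sensory and sympathetic neurons, had the most peaks of the family. Its domain of 338 kb held 6 Runx3-list peaks, 5 of them with a RUNX site, and 13 Brn3a-list peaks, 10 of them with V$BRNF. All 6 Runx3-list peaks were co-bound. Among all genes, 1.66% had at least as many co-bound Runx3-list peaks and 4.70% at least as many Brn3a-list peaks. These shares were 2.83% and 7.94% among the 5450 genes with domains of 166 to 769 kb.

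The 6 co-bound regions of Scn9a fell into 3 groups, namely 1 at the promoter, 3 in intron 1 and 2 upstream. At the promoter the Runx3-list peak of 324 bp (chr2:66634635-66634958) and the Brn3a-list peak of 404 bp (chr2:66634715-66635118) met over exon 1, with their centres 166 and 46 bp downstream of the TSS. The Runx3-list peak had 1 RUNX site. The Brn3a-list peak had no V$BRNF but held 3 RUNX sites, and the region covered by either peak also held 3. In intron 1, co-bound regions lay 23.6, 41.9 and 54.7 kb downstream of the TSS. Of these, the nearest had both motifs, the middle one (chr2:66592927-66593181 in the Runx3 list) had neither and the farthest (chr2:66580093-66580353) a RUNX site alone. Intron 1 also held 3 Brn3a-list peaks without Runx3, 18.6, 53.2 and 53.8 kb downstream, each with V$BRNF.

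Scn9a shares its regions with its neighbours. The 3 in intron 1 also fell in the domain of Scn1a, and the 2 upstream, 1 of which lay in intron 8 of Scn7a, also in that of Scn7a. When each peak was given only to the gene with the nearest TSS, Scn9a kept 5 Runx3-list peaks, all co-bound, and 9 Brn3a-list peaks.

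At Scn1a, the channel gene whose loss of function in humans causes epilepsy, 372 kb of domain held 5 peaks of the Runx3 list, 10 of the Brn3a list and 4 co-bound regions. Among all genes, 4.24% had at least as many co-bound Runx3-list peaks. The share was 8.99% among the 5450 genes with domains of 166 to 769 kb. Only 1 co-bound region lay in the gene itself, in intron 1 and 72.7 kb downstream of the TSS (chr2:66368087-66368247 in the Runx3 list), with a RUNX site and without V$BRNF. The other 3 were those of Scn9a intron 1. Its promoter held a Runx3-list peak of 179 bp (chr2:66440182-66440360), centred 569 bp downstream of the TSS, with no RUNX site and no Brn3a-list peak. By nearest TSS, Scn1a had 2 Runx3-list and 3 Brn3a-list peaks. Thus most peaks counted for Scn1a lay nearer to the start of Scn9a.

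Scn7a had 4 Runx3-list peaks and 6 Brn3a-list peaks in the longest domain of the family, 769 kb. All 4 Runx3-list peaks were co-bound, all had RUNX sites, 6 in all, and all 6 Brn3a-list peaks had V$BRNF. The 4 co-bound regions lay 473 and 15.0 kb upstream of the TSS, in intron 8, and between Scn7a and Scn9a. The Brn3a-list peak in intron 8 (chr2:66726855-66727438) was the widest of the 41, at 584 bp, and the Runx3-list peak of 214 bp lay wholly inside it. No promoter peak of either list was found at Scn7a.

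Scn2a and Scn3a lie head to head on chromosome 2. Scn2a had 3 Runx3-list and 6 Brn3a-list peaks, and 2 co-bound regions. One of them lay at an inner start of the gene, in intron 1 and 47.8 kb from the outermost TSS (chr2:65668441-65668684 in the Runx3 list and chr2:65668381-65668619 in the Brn3a list), with neither motif. The other, 212 kb downstream of the TSS and beyond the end of the gene, had both. Scn3a had 2 Runx3-list and 6 Brn3a-list peaks. Its promoter was occupied by Brn3a alone, in a peak of 181 bp that spanned the TSS (chr2:65567556-65567736). The only co-bound region of Scn3a lay 174 kb downstream of the TSS, past the end of the gene, with a RUNX site and without V$BRNF. By nearest TSS, Scn3a had no Runx3-list peak and 2 Brn3a-list peaks.

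Taking the members on chromosome 2 as 1 group of 5 genes, 1619 kb of merged domains held 15 Runx3-list peaks, 29 Brn3a-list peaks and 12 of the 14 co-bound regions. Of these regions, 9 lay in the domains of Scn1a, Scn9a and Scn7a and 3 in those of Scn3a and Scn2a. The density of Brn3a-list peaks was 14.8 per Mb in the former and 25.4 per Mb in the latter.

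The channels known from nociceptors, Scn10a and Scn11a, lie side by side on chromosome 9, where 306 kb of merged domains held 4 Runx3-list and 7 Brn3a-list peaks and 1 co-bound region. That region lay in intron 18 of Scn10a, 87.5 kb downstream of the TSS, with both motifs (chr9:119631752-119631976 in the Runx3 list and chr9:119631676-119632030 in the Brn3a list). A Runx3-list peak of 112 bp without a RUNX site lay next to it in the same intron. The promoter of Scn10a held a Brn3a-list peak of 256 bp with V$BRNF (chr9:119719095-119719350), centred 100 bp downstream of the TSS, and no Runx3-list peak. At Scn11a the converse was found, with a Runx3-list peak at an inner start of the gene, 1.48 kb from the outermost TSS (chr9:119823903-119824042), and no Brn3a-list promoter peak. The 4 Brn3a-list peaks of Scn11a lay outside the gene, 24.1 and 27.4 kb upstream of its TSS and in the shared stretch between both genes.

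Scn8a, the channel of nodes of Ranvier, had 3 Runx3-list peaks, all with RUNX sites, and 4 Brn3a-list peaks, 2 with V$BRNF. A pair of Runx3-list peaks lay in its intron 12, 116 and 117 kb downstream of the TSS, with no Brn3a-list peak near them. The single co-bound region lay 63.6 kb upstream, within the neighbouring gene Slc4a8, a bicarbonate transporter (chr15:100806135-100806354 in the Runx3 list and chr15:100806256-100806465 in the Brn3a list). Its peaks shared 47.1% of the shorter one, the least of the 14 regions. Scn4a, the skeletal muscle channel, had no Runx3-list peak and 1 Brn3a-list peak of 173 bp in intron 13 (chr11:106334292-106334464), without V$BRNF.

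**Figure D3:**
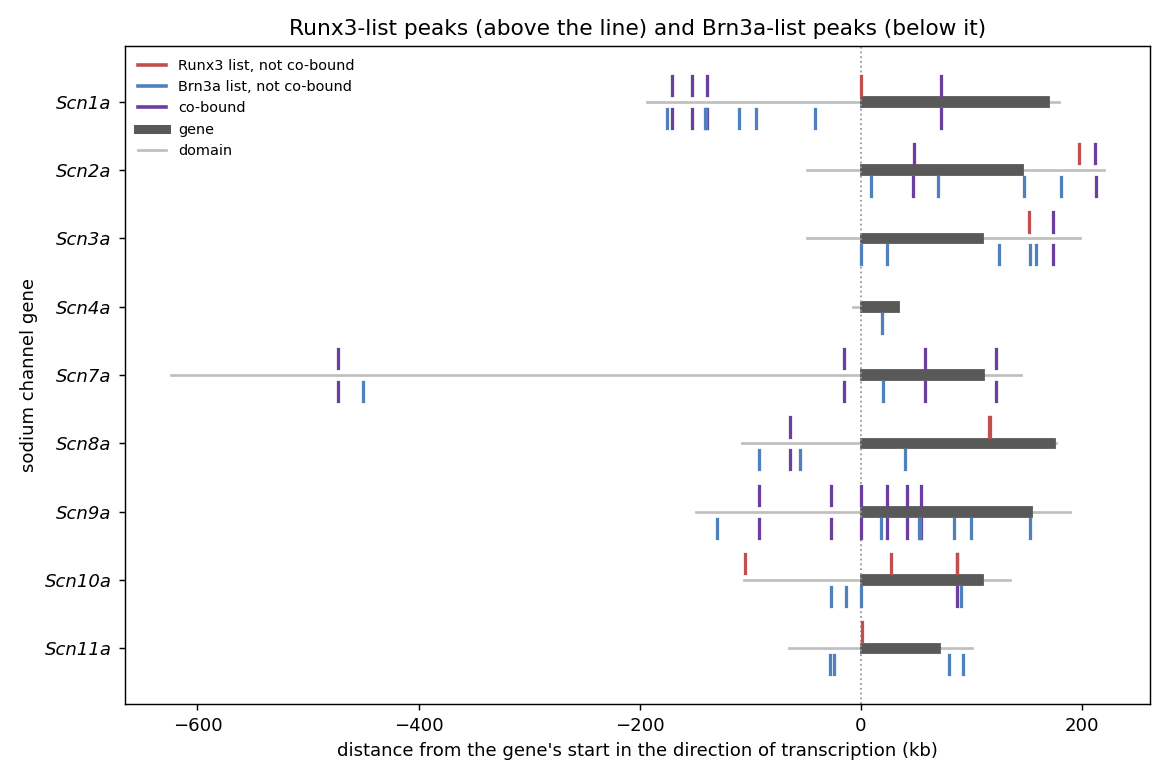
Positions of peaks in the domain of each sodium channel gene, as distance from its TSS in the direction of transcription (horizontal axis, kb). Ticks above each line are Runx3-list peaks and ticks below it Brn3a-list peaks, thick bars are genes, thin lines are domains, and co-bound peaks have their own colour. Scn9a has 3 co-bound regions between 23.6 and 54.7 kb, which appear again upstream of Scn1a, and Scn7a has 1 at 473 kb upstream.

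At promoters, taken as 1 kb to each side of the start of a protein-coding transcript, Runx3-list peaks were found at 4 of the 9 genes (Scn1a, Scn2a, Scn9a and Scn11a) and Brn3a-list peaks at 4 (Scn2a, Scn3a, Scn9a and Scn10a). Both were found at Scn2a and Scn9a. Among all genes, 36.0% had a Runx3-list promoter peak, 20.6% a Brn3a-list promoter peak and 14.7% both. When only the outermost start of each gene was used, Runx3-list promoter peaks remained at 2 genes, Scn1a and Scn9a. In the RefSeq promoter sequences of GRCm38, which are 300 bases long around a start and covered 8 of the 9 genes with 10 sequences, RUNX sites were found in 5, at Scn2a, Scn8a and Scn9a, beside 45.2% of all promoters. TTAATGA was found in 1, at Scn11a, beside 3.23% of all promoters. A match is a description of the sequence and not of occupancy.

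Most peaks of the sodium channel genes lay far from their starts. Of the 22 Runx3-list peaks, 4 lay in promoters, 11 in introns and 7 in intergenic DNA, and 13 were over 50 kb from the nearest sodium channel TSS (median 60.7 kb). Of the 41 Brn3a-list peaks, 4 lay in promoters, 20 in introns, 15 in intergenic DNA, 1 in a coding exon of Slc4a8 and 1 in the untranslated part of the last exon of Scn9a, and 22 were over 50 kb away (median 53.8 kb). The promoter share was 18.2% for Runx3, beside 32.9% over the whole list, and 9.76% for Brn3a, beside 14.3%. Of these peaks, 14 of the Runx3 list and 24 of the Brn3a list also fell in the domain of a gene outside the family, and which gene a distal peak acts on was not tested.

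Co-binding took in 14 of the 22 Runx3-list peaks, or 63.6% (Wilson 95% interval 43.0% to 80.3%), beside 32.7% of the whole Runx3 list. Among distal peaks the values were 12 of 18, or 66.7% (43.7% to 83.7%), beside 33.0%. In both cases the interval lay above the share of the list. Co-bound peaks of the Brn3a list were 14 of 41, or 34.1% (21.6% to 49.5%), beside 25.6%, a share within the interval. Among distal ones they were 12 of 37, or 32.4% (19.6% to 48.5%), beside 20.2%. The Runx3-list peaks of the sodium channel genes were also wider than those of the whole list, with a median of 222.5 bp beside 176 bp, and co-bound peaks were wider than others in the whole list (223 and 156 bp). When only peaks at least as wide as the median of their list were used, 81.25% of the 16 remaining Runx3-list peaks were co-bound, beside 35.1% of such peaks over the list. Of the members, 5 lie on chromosome 2 and 2 on chromosome 9, and 12 of the 14 regions came from the chromosome 2 group.

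RUNX sites were found in 17 of the 22 Runx3-list peaks, or 77.3% (56.6% to 89.9%), beside 61.3% of the whole list. V$BRNF was found in 29 of the 41 Brn3a-list peaks, or 70.7% (55.5% to 82.4%), beside 54.2%. Among distal peaks alone RUNX sites were found in 15 of 18, or 83.3% (60.8% to 94.2%), beside 65.3%, and V$BRNF was found in 27 of 37, or 73.0% (57.0% to 84.6%), beside 60.1%. The share of the list lay within the interval for RUNX sites and for distal peaks with V$BRNF, and just below it for V$BRNF over all peaks. The words TGCGGT and TGTGGT alone were held by 10 Runx3-list peaks, or 45.5%, beside 44.2%. TTAATGA was held by 9 of the 41 Brn3a-list peaks, or 22.0% (12.003% to 36.7%), beside 9.41%, and by 3 of the 22 Runx3-list peaks, or 13.6% (4.75% to 33.3%), beside 3.25%. ATTAAT was held by 10 of the 41 Brn3a-list peaks, or 24.4% (13.8% to 39.3%), beside 16.7%. The peaks were poorer in G and C than the lists, with medians of 46.3% beside 54.8% in the Runx3 list and 45.7% beside 49.6% in the Brn3a list, and the part of base composition in the motif shares was not tested.

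Within the co-bound regions, 8 had both motifs, 4 a RUNX site alone, 2 neither, and 0 V$BRNF alone. Over all 8527 co-bound pairs of the lists, 28.9% had both motifs, and over the distal ones 38.9%. RUNX sites were found in 12 of the 14 co-bound Runx3-list peaks, or 85.7% (60.1% to 96.0%), beside 55.6% of co-bound peaks over the list, and in 5 of the 8 others, or 62.5% (30.6% to 86.3%), beside 64.0%. For V$BRNF the counts were 8 of 14 co-bound Brn3a-list peaks, or 57.1% (32.6% to 78.6%), beside 47.5% over the list. Promoter peaks made up 2 of these 14, and 32.4% of the co-bound Brn3a-list peaks over the list. Among distal co-bound peaks of that list the V$BRNF share was 63.0%. Of the 27 others, 21 held V$BRNF, or 77.8% (59.2% to 89.4%), beside 56.6%. The intervals of co-bound and other member peaks overlapped. The centres of the paired peaks were a median of 36 bp apart (8 to 120 bp), beside 35 bp over all pairs. In 5 regions the shorter peak lay wholly inside the longer one.

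**Figure D4:**
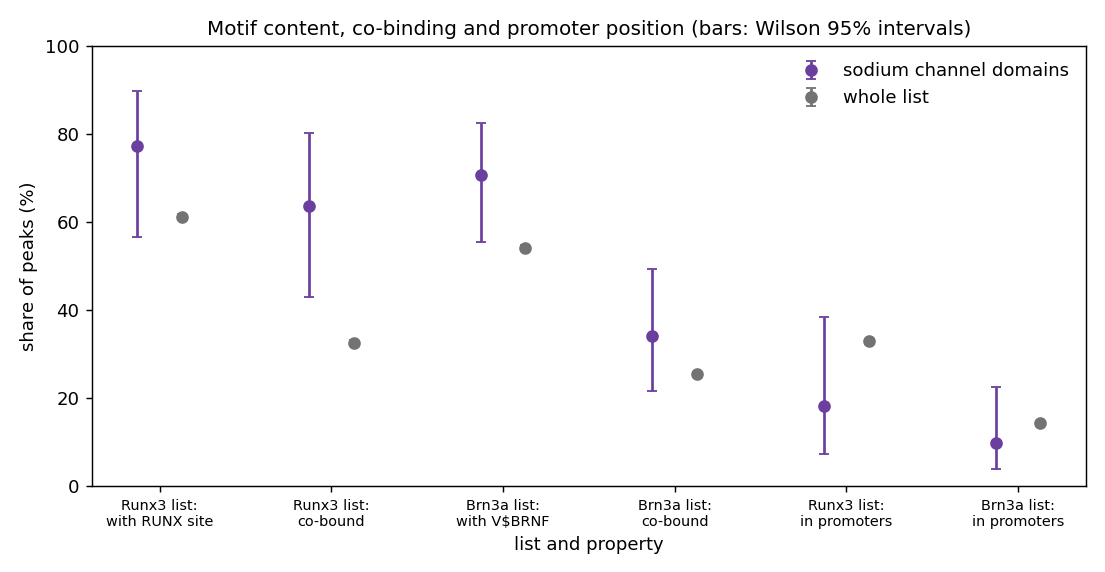
Share of peaks (vertical axis, %) with a RUNX site, with V$BRNF, co-bound or in promoters, for the domains of the sodium channel genes and for the whole lists. Points are shares and bars Wilson 95% intervals. The co-bound share of the Runx3 list is 63.6% at the sodium channel genes and 32.7% in the whole list, and the whole-list value lies outside the interval.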

How the data were processed

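The authors performed CUT&RUN with E12.5 mouse DRG TrkC neurons, in 3 Runx3, 4 Brn3a and 3 H3K27Ac libraries and 1 serum library. The submitters' processing notes name cutadapt, Bowtie, MACS2, GRCm38 and mm10. Settings of peak calling are not given in the sources used here. As deposited, the files hold consensus positions and other annotation values that the authors had added, namely the number of RUNX sites (RBS) and the presence of V$BRNF per peak, with no height, so that the read depth behind each peak is unknown. The RBS number equalled the count of RUNX words in 25883 of 25883 nuclear peaks, which also settled that coordinates are counted from 1. The table deposited for H3K27Ac was identical to the Runx3 table and was not used, and serum was not analysed here. Mitochondrial peaks, 2 in the Runx3 list, were excluded.

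Peaks were assigned by their centre to domains of protein-coding genes (GENCODE) and to promoters within 1 kb of a transcript start, with pandas 2.3.3, numpy 2.4.6 and scipy 1.17.1 (Python 3.11.15), and matplotlib 3.10.9 drew the plots. Assignment and word counts were tested on simulated data. Shares are given with Wilson 95% intervals and densities with exact Poisson intervals, which cover the counting of peaks only. The exon and intron numbers are those of 1 annotated transcript per gene. Named genes were all 9 members and, of 12 fixed genes of channel partners, those with a co-bound region. Members, gene lists and alternatives were chosen with earlier results of these data known. Alternatives were other domains, gene starts, assignments, overlaps, widths and motif words. Sequences are from GRCm38 of RefSeq.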

Additional observations from a re-analysis of the deposited data

How the results depend on the processing

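Of 56 alternative values, 48 stayed within 1.5 times the count or within the interval of the share. Assigning each peak only to the gene with the nearest TSS moved the counts to 12 Runx3-list peaks, 27 Brn3a-list peaks and 9 co-bound Runx3-list peaks, and left co-bound regions at 4 genes (Scn1a, Scn2a, Scn7a and Scn9a). With TGTGGT and TGCGGT alone as the RUNX site, 45.5% of the Runx3-list peaks held one, beside 44.2% of the list, and with TTAATGA in place of V$BRNF the share was 22.0%. With the wider peaks alone the co-bound share of the Runx3 list was 81.25%, and with the outermost gene start alone 2 genes had a Runx3-list promoter peak. No paired analysis was possible because each list is a consensus of its libraries and holds no value per replicate, and for the same reason no library could be left out. The smallest peaks that the lists could hold depend on read depth, which is unknown.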

Other observations

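Partners of sodium channels were looked up in the same way, from a list of 12 genes that encode beta subunits, fibroblast growth factor homologous factors and proteins that anchor, degrade or splice the channels. Of these, 7 had a Runx3-list peak in the domain, 8 a Brn3a-list peak and 4 a co-bound region, and 2 had no peak of either list. Over all genes, 63.1% had a Runx3-list peak, 57.7% a Brn3a-list peak and 31.9% a co-bound Runx3-list peak. Ank3, which encodes ankyrin-G, the scaffold that holds the channels at the axon initial segment, had 15 and 19 peaks of the Runx3 and Brn3a lists and 6 co-bound regions in 734 kb, and promoter peaks of both lists. Nedd4l, a ubiquitin ligase that removes channels from the membrane, had 12 Runx3-list and 13 Brn3a-list peaks and 6 co-bound regions in 727 kb. Fgf12, whose product binds the channels inside the cell, had 9 and 11 peaks and 3 co-bound regions in 1176 kb. Scn3b, which encodes a beta subunit, had 3 and 4 peaks and 1 co-bound region in 337 kb. These domains differ in length, and no comparison with the sodium channel genes was made.

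Marker genes were looked up as well. Co-bound regions were found in the domains of 11 of 11 marker genes of sensory neurons and 1 of 2 of immune cells (Ptprc and Cd68), beside 31.9% of all genes. The sensory neuron genes were 5 of the list for TrkC neurons (Ntrk3, Runx3, Etv1, Pou4f1 and Isl1), 3 for mechanoreceptors and 3 for nociceptors. Of these, Pou4f1 and Isl1 are shared by most sensory neurons, and Runx3 is the locus carried by the transgene. The domains of the sensory neuron genes measured 46.5 to 1961 kb and those of the immune genes 6.27 and 1093 kb, so that length and class cannot be told apart here. Peak positions are not expression, and the purity of the sort was not tested.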
